A study of Mus musculus with 2 samples.

Results

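Cluster 0 is the main secretory cluster of the adult mouse oviduct epithelium, and its cells were those to which the authors' deposited clustering of the adult library gave the number 0. It held 130 of the 406 adult cells (32.0%, exact 95% Clopper-Pearson interval 27.5 to 36.8), in a series of 669 cells. The series used single-cell RNA sequencing (10x Chromium 3' V2, which counts each captured RNA molecule by a unique molecular identifier, UMI) on C57BL/6 mice, with 1 library from adults at estrus and 1 from pups at postnatal day 4 (P4). Tissue was digested with enzymes, and the cells were sorted to remove dead cells and to enrich epithelium with antibodies to Epcam and CD45. With 1 library per age and cells that are not replicates, no test of a condition was possible, and the intervals given cover counting error only. The number of animals behind each library is not given in the sources used here.

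The oviduct is lined by multiciliated cells, which beat to move fluid, eggs and embryos, and by secretory cells, which make the luminal fluid. Secretory cells export large amounts of glycoprotein through the endoplasmic reticulum, where chaperones and disulfide isomerases fold each protein before it leaves. Oviductin (Ovgp1), the glycoprotein that coats the egg and early embryo in the oviduct, is the best known of their products, and it is made mainly around estrus.

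The adult table held 256 columns of cluster 0 under 2 column prefixes, which reduced to 130 barcodes. Of these, 126 were present under both prefixes and had the number 0 in both, 3 were under the first alone and 1 under the second alone. The pairs of columns of 1 barcode were close to identical (squared difference over sum, 0.0463 to 0.108), against 1.24 or more for columns of different barcodes, so each barcode was counted once. No adult barcode occurred among the P4 barcodes. Cluster 0 held 512857 UMI, with 514 to 15050 per cell and a median of 4107.5 UMI and 1664.5 genes. The other 276 adult cells held 888784 UMI with a median of 2965.5 per cell. Mitochondrial genes took a median of 4.0% of UMI in both groups, and ribosomal protein genes 24.7% in cluster 0 and 10.5% in the others. Deeper cells weigh more in a pooled level, which is the sum of a gene's UMI over a group per 10000 UMI of that group.

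The label was checked against markers. Of 15 markers of multiciliated cells, all were at least 2-fold lower in cluster 0 than in the other adult cells, and their summed level was 2.75 in cluster 0 and 157.6 in cluster 1, the largest of the other clusters. Foxj1, the master transcription factor of motile cilia, had a level of 0.175 (0.0802 to 0.333) in cluster 0 and 8.09 in cluster 1. UMI of 3 or more multiciliated markers were present in 10 of the 130 cells, against 225 of the 276 other cells. Epcam, the epithelial adhesion molecule, was counted in 72.3% of cluster 0 cells, and Krt18, a keratin of simple epithelia, in 94.6%. Ptprc (CD45) and Cd3e were at 0 in cluster 0, where the 7 leukocyte markers summed to 0.994, 45 of their 51 UMI being Cd74. The basal cell markers Krt5, Krt14 and Trp63 were also at 0, while the other members of the basal or stem list, Cd44 (46 UMI), Prom1 (25) and Ly6a (8), were present. Of the granulosa or luteal list, Inha, Amh and Foxl2 were at 0, and Cyp11a1, Star and Hsd3b1 had 11 UMI in all. The summed levels were 2.26 for 7 fibroblast markers, 4.06 for 7 smooth muscle markers and 0.585 for 6 endothelial markers. Msln is also made by the mesothelium that covers the oviduct. Of the 42 cells with Msln, 3 held a UMI of another mesothelial marker. In the cluster Muc16 and Bnc1 were at 0, while Upk3b had 12 UMI, Gpm6a 6, Upk1b 4 and Lrrn4 2. These 24 UMI lay in 6 cells, 3 of which held Msln. Of 9 general secretory markers, Krt18, Muc1, Lcn2 and Msln were at least 2-fold higher than in the other adult cells. Cd24a was lower, and the other 4, Ovgp1 among them, lay within 2-fold. Their summed level was 113.9 in cluster 0 and 342.2 in cluster 4. By these markers the cells were epithelial, held secretory genes that were not all particular to them, and were low in multiciliated genes.

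The 6 genes that mark the cluster are secreted or surface proteins, an enzyme, a transporter and Kctd14, as the plot of their levels by cluster shows. Since the clusters were themselves drawn from the expression of these cells, and the markers were chosen with these data known, the values are descriptions with no test. Ovgp1 (GRCm38 chr3:105973711-105987423, plus strand) had a pooled level of 58.7 (56.6 to 60.8), with single cells from 0 through a median of 39.3 to 283.0. Msln (chr17:25748613-25754378, minus strand), which encodes mesothelin, a surface protein anchored by a lipid tail, had a level of 2.3 (1.90 to 2.76) and was counted in 42 cells. Sepp1 (chr15:3268547-3280508, plus strand), which encodes selenoprotein P, the secreted carrier of selenium, had a level of 20.8 (19.6 to 22.1) and a cell median of 13.8. Every one of these 3 genes ranged down to 0 in single cells, and 94 of the 130 cells held Sepp1.

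Gatm (chr2:122594467-122611303, minus strand), the enzyme that starts creatine synthesis, had a level of 7.86 (7.11 to 8.66) and ranged from 0 to 49.9 over cells. Kctd14 (chr7:97451323-97459557, plus strand), which encodes a protein with a tetramerization domain, had a level of 16.4 (15.3 to 17.6). Slc1a3 (chr15:8634124-8710764, minus strand), a glutamate and aspartate transporter, had a level of 2.22 (1.83 to 2.67) and was present in 54 cells. Of the 130 cells, 60.0% (51.0 to 68.5) held at least 4 of the 6 markers, 22 cells held all 6 and 3 cells held none. The same share was 2.19% in cluster 1, 0 of 37 cells in cluster 3, 22.6% in cluster 4 and 5 of 25 cells in cluster 5. These shares were not matched for depth, which had a median of 4107.5 UMI in cluster 0 and 1185 in cluster 4.

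**Figure D1:**
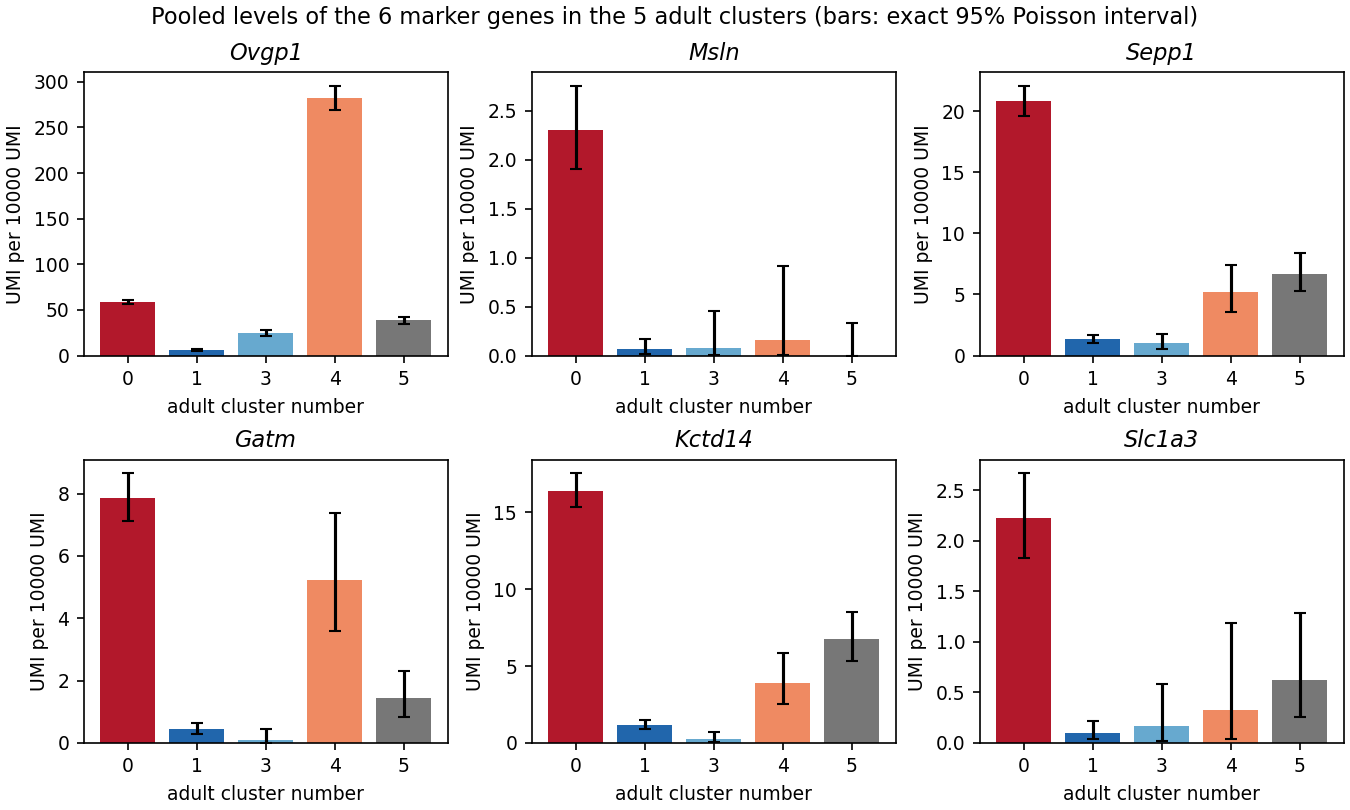
Pooled level (UMI per 10000 UMI, linear axes from 0) of the 6 marker genes in the 5 adult clusters, with exact 95% Poisson intervals that cover counting error only. Cluster 0 has the highest bar for Msln, Sepp1, Gatm, Kctd14 and Slc1a3, while for Ovgp1 the bar of cluster 4 (282.1) is above that of cluster 0 (58.7), and for Gatm the intervals of clusters 0 and 4 overlap.

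RefSeq's table of promoters (GRCm38.p6) held entries for Ovgp1, Sepp1, Gatm and Slc1a3, and for neither Msln nor Kctd14. The stretches upstream of Ovgp1 and Gatm are shown because both hold the pentamer GGTCA, the core half-site of the estrogen response element, 2 times in the 250 bases before the RefSeq start, and the animals were at estrus. Capitals mark GGTCA or its reverse complement TGACC, both strands having been searched, and bases that GENCODE M21 places inside the gene are left out. The 159 bases for Ovgp1 are chr3:105973552-105973710 (plus strand), and the 224 bases for Gatm are chr2:122611304-122611527 (minus strand, written 5′ to 3′ along the gene).
Ovgp1: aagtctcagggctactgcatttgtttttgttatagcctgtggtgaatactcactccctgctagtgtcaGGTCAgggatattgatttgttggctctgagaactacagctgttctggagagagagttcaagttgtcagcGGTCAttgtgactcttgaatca
Gatm: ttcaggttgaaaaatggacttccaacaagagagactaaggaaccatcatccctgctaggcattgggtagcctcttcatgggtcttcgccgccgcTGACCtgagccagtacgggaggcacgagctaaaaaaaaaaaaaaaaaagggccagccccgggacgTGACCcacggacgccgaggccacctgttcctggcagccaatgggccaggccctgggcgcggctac
The first bases of the matches lie 182 and 113 bases before the RefSeq start of Ovgp1 and 156 and 91 before that of Gatm. Of 27025 mouse promoter windows of 250 bases, 34.9% held GGTCA at least once and 8.10% at least 2 times, so the match is common. Action of estrogen at these sites was not tested. Neither the Slc1a3 window nor any of the 3 Sepp1 windows held it. Another 4 motifs were searched on both strands in the same windows. TGANTCA was found 1 time for Ovgp1 and in 6.87% of all windows, and CACCC 3 times for Slc1a3, 1 to 2 times for Sepp1 and in 51.3% of all. TATAAA was found for Slc1a3 and in 1 Sepp1 window, and in 13.0% of all. TTGCNNAA was found in no window of these 4 genes and in 9.55% of all. The TGANTCA match of Ovgp1 lies apart from both GGTCA matches.

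Among the hormone receptors, Esr1, the estrogen receptor alpha, was counted in 40.8% of cluster 0 cells at a level of 1.66 (1.32 to 2.05), in 15.8% of cluster 1 cells at 0.658 and in 14 of the 25 cluster 5 cells at 2.68. Thinned to 1000 UMI per cell the shares were 14.3% (8.39 to 22.2) in cluster 0, 7.80% (3.96 to 13.5) in cluster 1, 21.1% (6.05 to 45.6) in cluster 4 and 38.1% (18.1 to 61.6) in cluster 5, with that of cluster 0 overlapping the others. Pgr, the progesterone receptor, had 6 UMI in all of cluster 0. The transcription factors Wt1 and Pax8, which are known from the Mullerian duct, were present in 61.5% and 20.8% of the cells. Wt1 differed by less than 2-fold from the other adult cells (3.84 against 3.13), as did Pax8 (0.682 against 0.371).

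In cluster 0 or in the remaining adult cells, 5312 genes had a UMI in 10% of cells or more. Of these, 413 (7.77%) had a fold of at least 2 over the other adult cells and 1016 (19.1%) were lower to that extent, with a median log2 fold of -0.12. Folds were computed with 0.1 added to each level, and they understate the ratio for low genes. Because the comparison is that of the clusters, these counts describe it and support nothing else. Msln had a fold of 14.3 (2.3 against 0.0675), with an interval of 15.2 to 94.8 for the ratio without the added 0.1. Sepp1 followed at 8.97-fold (20.8 against 2.23), Gatm at 8.43-fold (7.86 against 0.844), Kctd14 at 8.16-fold (16.4 against 1.92) and Slc1a3 at 7.97-fold (2.22 against 0.191). A mean over cells in place of the pooled level raised the fold of Kctd14 to 13.1, and thinning to 1000 UMI to 17.3. With 0.5 added in place of 0.1, Msln came to 4.94-fold and Slc1a3 to 3.94-fold, below Sepp1 at 7.80, Kctd14 at 6.98 and Gatm at 6.22. In cluster 1, 30 of the 68 UMI of Kctd14 lay in 1 cell, as did 28 of the 78 UMI of Sepp1.

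Ovgp1 did not reach 2-fold against the other adult cells (58.7 against 31.8, 1.84-fold), and a mean over cells brought this to 1.07-fold. Cluster 4, with 31 cells, had an Ovgp1 level of 282.1 (268.9 to 295.7), and 1724 of the Ovgp1 UMI outside cluster 0 were in it. The order of the clusters was 4, 0, 5 (38.5), 3 (24.6) and 1 (6.16), and no neighbours had overlapping counting intervals. At 1000 UMI per cell, Ovgp1 was counted in 84.8% (76.8 to 90.9) of cluster 0 cells and in 21.3% (14.8 to 29.0) of cluster 1 cells, where multiciliated markers dominate. The source of the Ovgp1 UMI in cluster 1 was not tested. The unthinned shares were 88.5% and 29.5%, at median depths of 4107.5 and 3165 UMI. Thinned shares of the other markers in clusters 0 and 1 were 63.4% and 6.38% for Sepp1, 58.9% and 2.13% for Kctd14, 49.1% and 2.13% for Gatm, 16.1% and 0 of 141 cells for Slc1a3, and 15.2% and 0 of 141 for Msln. The count of 0 allows up to 2.58% of cells with a UMI (exact 95% limit). In the 19 thinned cells of cluster 4 the shares were 47.4% (24.4 to 71.1) for Gatm, 31.6% (12.6 to 56.6) for Sepp1 and 26.3% (9.15 to 51.2) for Kctd14. The intervals in cluster 0 were 39.5 to 58.7, 53.8 to 72.3 and 49.2 to 68.1, and each overlapped that of cluster 4. The 18 cells of cluster 0 under 1000 UMI are not in these shares.

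Next to the markers, membrane transporters and a peptide precursor were among the genes with the largest folds. Slc6a2, the noradrenaline transporter, had levels of 0.955 and 0.0563, Atp10b, a phospholipid flippase, 0.624 and 0.0225 on 2 UMI in the others (interval of the ratio 7.07 to 238.8), and Nppc, the precursor of C-type natriuretic peptide, 1.05 and 0.0788. Ano1, a calcium-activated chloride channel, was 5.63-fold higher (1.03 against 0.101). Atp13a5, Olfml3, Cd74, Rhoj, Wfdc1, Igfbp3, Rnase1, Ppp1r1b, AW551984 and Gas7 also had large folds, all between 4.79-fold for Gas7 and 6.20-fold for Atp13a5. Several of these rest on few cells: 1 cell held 28.9% of the 45 Cd74 UMI and 23.9% of the 159 Igfbp3 UMI.

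The 10 genes with the largest folds lower were Dynlrb2 (0.156 against 13.9, 54.5-fold), Tmem212, Caly, Ccdc153, Cidea, Prr29, Vpreb3, Arhgdig, Ckb and Smim5. Dynlrb2, Tmem212 and Ccdc153 belong to cilia or to the multiciliated list, and Ckb is the brain-type creatine kinase, at 0.253 in cluster 0 and 13.1 in the others. Ckb was thus 37.2-fold lower, while Gatm, which acts earlier in creatine metabolism, was 8.43-fold higher.

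Among 13 measured secreted glycoproteins and defence proteins, 9 were at least 2-fold higher and 1 lower, with a median log2 fold of 1.22, against 7.77% higher over all genes. Lcn2, an iron-scavenging lipocalin, was 4.12-fold higher (15.01 against 3.57), Clu, an extracellular chaperone, 4.09-fold (14.6 against 3.50), and Ltf, lactoferrin, 2.68-fold (6.92 against 2.52). Complement C3 was 2.31-fold higher (3.53 against 1.47) and Muc1, a membrane mucin, 4.49-fold (0.955 against 0.135). Msln, Sepp1, Dcpp3 and Mfge8 were the other 4, and Spp1, osteopontin, was 3.98-fold lower. Without the cell with the most Dcpp3, left out after seeing the data, the Dcpp3 level was 4.04 against 4.91 and 8 of 13 were higher. Cluster 4 had more Lcn2 (31.9), Clu (26.0), Ltf (9.65), Dcpp3 (66.3) and Mfge8 (7.85), cluster 5 more Ltf (11.6), and C3 lay at 3.41 to 5.24 in clusters 3, 4 and 5 and at 0.236 in cluster 1. Among 10 protease inhibitors, Wfdc18 (69.6 against 17.5), Wfdc1 and Timp2 were higher and Wfdc15b lower. Cluster 4 had more Wfdc18 (126.7) and about as much Wfdc1 (2.45, with 2.48 in cluster 0). Timp2 was highest in cluster 0 (1.46, with 1.25 in cluster 5).

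Counts in the other lists are read against 7.77% higher and 19.1% lower over all genes. Of 13 ion, bicarbonate and water transport genes, 3 were higher (Cftr, the cystic fibrosis chloride channel, at 0.819 against 0.225, Slc4a4, a bicarbonate cotransporter, and Kcne3) and 2 lower. Among 10 genes of amino acid and taurine transport, Slc1a3 was higher and Slc6a6, the taurine transporter, lower. Of 7 members of the insulin-like growth factor system, Igfbp3 (3.10 against 0.540) and Igfbp4 were higher and Igfbp2 lower. Notch2 and its target Hes1 (6.75 against 3.17) were higher among 5 Notch genes, with Lfng lower. Of 8 Wnt genes, Rspo1, a secreted enhancer of Wnt signalling, Dkk3 and Tcf7l2 were higher and Wnt4, Wnt11 and Ctnnb1 lower. None of 7 TGF-beta and BMP genes and none of the epithelial markers other than Krt18 differed 2-fold.

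Of 16 glutathione and oxidant defence genes, Gstm2, a glutathione transferase, was 4.59-fold higher (24.8 against 5.32), while Gpx3, Gpx4, Gsto1 and Prdx5 were lower. In the antigen presentation and interferon list of 12, H2-K1, Psmb8 and Cd74 were higher, and Ifitm1, an interferon-induced membrane protein, was 17.3-fold lower (2.28 against 41.2). Cluster 4 had H2-K1 at 2.62 against 1.99, and cluster 5 had Psmb8 at 0.535 against 0.487, while Cd74 was highest in cluster 0. Of 90 ribosomal protein genes, 52 were at least 2-fold higher and none lower (median log2 fold 1.05). The median of the 20 genes of endoplasmic reticulum folding and translocation was 0.55, with Pdia3 alone past 2-fold (12.6 against 5.93). In the list of immediate early and dissociation stress genes, which the enzymatic digestion of tissue is known to raise, 5 of 17 were higher (Fosb, Jun, Egr1, Ier3 and Zfp36), with a median of 0.83. The part of digestion in this difference was not tested. Without ribosomal protein and mitochondrial genes in the totals, the counts over all genes were 577 higher and 899 lower.

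**Figure D2:**
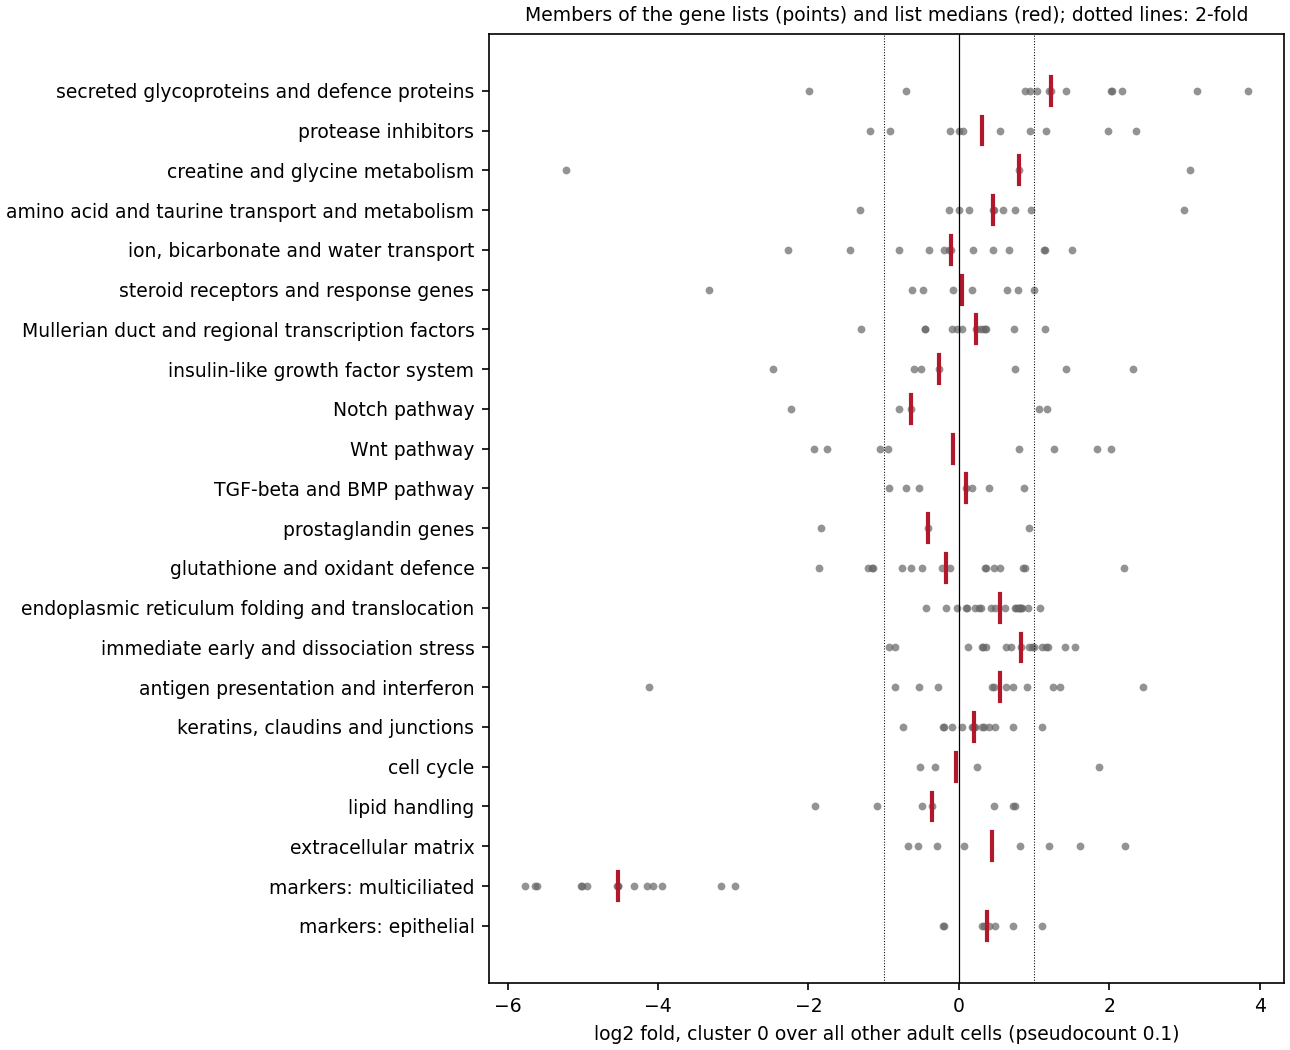
Log2 fold of cluster 0 over all other adult cells (0.1 added to each level) for the measured members of the gene lists shown, each point being 1 gene, with the list median in red and dotted lines at 2-fold either way. The 15 multiciliated markers lie furthest to the left (median -4.53), and the secreted glycoproteins and defence proteins have the highest median (1.22).

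Genes higher than in every other cluster were fewer. Of 4363 genes with a UMI in at least 10% of cluster 0 cells, 40 (0.917%) were at least 2-fold higher than in each of clusters 1, 3, 4 and 5. Msln led with 2.3 against 0.164 in cluster 4, where it rests on 1 UMI (ratio interval 2.48 to 560.0). Sepp1 was 3.08-fold above cluster 5 (6.69) and Kctd14 2.40-fold above it (6.78), while Slc1a3 was 3.21-fold above it (0.625). Gatm is absent from the 40, since cluster 4 reached 5.24 (3.58 to 7.39). Ranked with them were Atp10b, Slc6a2, Sh2d4a, Adh1 (an alcohol dehydrogenase, 0.994 against 0.186 in cluster 1), Vopp1, Asap2, Atp13a5, Tesc, Cd74, Tgm2 (a transglutaminase), Bcl2 (an inhibitor of cell death) and Osbpl8. For Asap2 and Bcl2 the counting interval of the ratio reached below 1. It also did so for many of the 40 with smaller folds, such as Ano1 (from 0.933) and Gas7 (from 0.927), though not for Kctd14 (from 1.91). The 40 genes are therefore not all clear of counting error.

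Cluster 4 was the nearest comparison, since it too carried secretory markers, but its 31 cells were shallower (median 1185 UMI against 4107.5). Of 4474 genes, 931 (20.8%) stood at least 2-fold above cluster 4 and 402 (8.99%) lower. Ovgp1 was 4.80-fold lower in cluster 0, and with it Dcpp3 (11.6 against 66.3), Agr2, a disulfide isomerase of mucus-making cells (4.15 against 23.6), Ren1, Calb1, Fkbp11, Sec11c and Dnajb11. Of the 20 endoplasmic reticulum genes, 13 were at least 2-fold lower in cluster 0 and none higher (median log2 fold -1.25, against 0.16 over all genes). Hspa5, the chaperone BiP, stood at 6.12 (5.46 to 6.84) in cluster 0 and at 16.0 (13.0 to 19.5) in cluster 4.

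In the other direction, 16 of 16 measured immediate early and stress genes were higher in cluster 0 than in cluster 4. Their median log2 fold was 1.81, against 0.16 over all genes, of which 20.8% were higher. Fos stood at 31.3 (29.8 to 32.9) against 8.84 (6.64 to 11.5) and Jun at 20.7 against 5.73. Socs3, a feedback inhibitor of cytokine signalling, had 288 UMI in cluster 0 and 2 in cluster 4 (levels 5.62 and 0.327). Fosb and Dnajb1 also had 2 UMI each in cluster 4, so these genes were measured through cluster 0 alone. Igfbp3, Cldn4 (a tight junction claudin), Cdkn1a (the cell cycle inhibitor p21), Dcn, Senp6, Tgm2 and Wnk1 had no UMI in cluster 4. Against a floor of 3 counts over cluster 4, Igfbp3 was at least 6.32-fold higher and Cldn4 at least 4.17-fold. Of the cells, 30.8% in cluster 0 and 51.6% in cluster 4 had under 2% mitochondrial UMI. Without those cells (90 and 15 left), a choice made after seeing the data, 14 of 16 stress genes were higher (median log2 fold 2.16) and 11 of 20 endoplasmic reticulum genes lower (-1.12), and the counts over all genes were 1563 higher and 732 lower. Thinned to 1000 UMI, which leaves 112 and 19 cells, 290 genes were higher and 741 lower. At that depth 14 of 16 stress genes were higher and 0 lower (median log2 fold 1.89, against -0.50 over all genes). Of the 20 endoplasmic reticulum genes, 15 were then lower and 1 higher. The 112 and 19 cells unthinned, also chosen after seeing the data, gave 1016 higher and 750 lower.

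Variation inside cluster 0 was measured as dispersion, the variance of a gene's counts over cells relative to that of Poisson counts at each cell's depth, where 1 is counting noise. Of 701 genes with at least 100 UMI in the cluster, 157 (22.4%) had a dispersion above 2, and the median was 1.44. Dcpp3, a secreted protein of the demilune cell and parotid family, had the largest value, 325.5, with 388 of its 593 UMI in 1 cell and any in 15 cells. Malat1, a nuclear RNA, followed at 42.7, then Wfdc18 at 35.6, Actb at 26.3 and Ovgp1 at 15.6. Of the markers, Kctd14 (5.16), Gatm (5.02), Sepp1 (4.52) and Msln (3.16) also varied beyond counting noise, while Slc1a3 (1.29) lay below the median. For the same relative spread over cells, this value rises with a gene's count. The markers run from 114 UMI (Slc1a3) to 3009 (Ovgp1), so it does not rank them by how much they vary. The other genes among the 20 with the largest dispersion were 3 mitochondrial genes (mt-Co1, mt-Atp6, mt-Co3), Tmsb4x, Igfbp3, Fos, Crip1, Myl9, Mt1, S100a6, Tmsb10, Junb, BC048546, Lcn2 and Jun. At 1000 UMI per cell, 26 genes had a dispersion above 2.

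**Figure D3:**
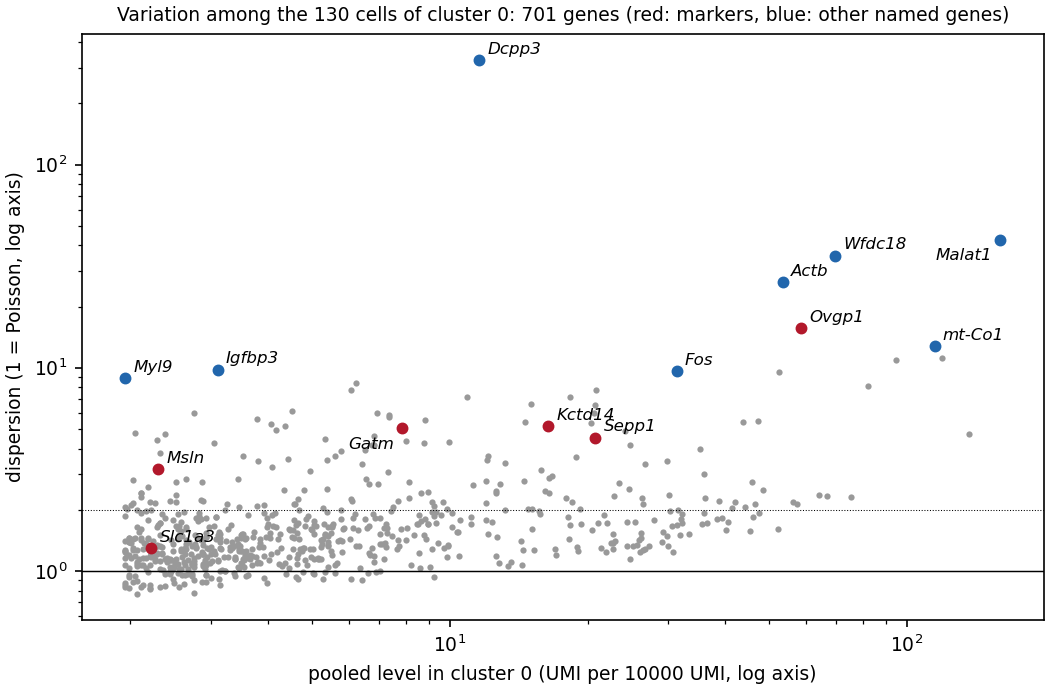
Dispersion (1 = Poisson counts, log axis) against pooled level (UMI per 10000 UMI, log axis) for the 701 genes with at least 100 UMI in cluster 0, with markers in red, other named genes in blue and a dotted line at 2. Dcpp3 stands alone at 325.5, and of the markers Ovgp1 (15.6) is highest and Slc1a3 (1.29) lowest. The value rises with a gene's count at the same relative spread, so genes of unlike level are not ranked by it.

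Correlations among the 6 markers were weak. Over the 130 cells, which share 1 library, the largest correlation of depth-adjusted residuals between any 2 markers was 0.27 (Gatm with Slc1a3), and that of Ovgp1 with the others was between -0.04 and 0.16. Counting noise lowers such values for genes with few UMI, such as Msln (118 in all) and Slc1a3 (114), so weak values do not show that the markers vary independently. Pairs of genes were ranked without ribosomal protein, mitochondrial, Gm and Rik genes. Jun and Fos, partners in the AP-1 transcription factor, had the highest correlation of the pairs so ranked (Pearson 0.73, Spearman 0.79). Klf6 with Fos (0.68), Btg2 with Junb (0.67) and Atf3 with Fos (0.67) were also among the 8 highest, as were Tmem176b with Tmem176a (0.69), Anxa2 with Krt19 (0.70), Anxa2 with Epcam (0.69) and Slc39a1 with Actb (0.66). Spearman values were 0.68 to 0.73 for Klf6 with Fos, Btg2 with Junb, Atf3 with Fos and Slc39a1 with Actb, but 0.49 for Tmem176b with Tmem176a, 0.32 for Anxa2 with Krt19 and 0.36 for Anxa2 with Epcam. The lowest were Xist with Sec61g (-0.43), Serf2 with Itm2b (-0.42), Ubl5 with Malat1 (-0.41), S100a11 with Calr (-0.40) and Sec61g with Malat1 (-0.40). The first principal component of the residuals took 19.2% of the variance and was Dcpp3 (loading 0.99), with 50.9% of its squared score in 1 cell. With residuals limited to the square root of the number of cells, a choice made after seeing the data, it took 7.90%, with Malat1, 7 mitochondrial genes, Ovgp1 and Sepp1 at one end and Rpl41, S100a11, Pfn1, Tmsb4x and Prdx1 leading the other. Its Spearman correlation with the mitochondrial share of a cell was -0.80.

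Cells of cluster 0 fell into 2 sets along depth and mitochondrial share, as the plot of single cells shows. In the authors' clustering of adult and P4 cells together, 79 of 128 cluster 0 cells (61.7%, 52.7 to 70.2) lay in merged cluster 2 and 49 in merged cluster 4, and 2 were not in that table. Merged cluster 4 also held 24 of the 31 cells of adult cluster 4 and 11 of the 25 of cluster 5. Merged cluster 2 also held 6 cells of adult cluster 4, 12 of cluster 5 and 1 of cluster 1. Of the cluster 0 cells, the first set (merged cluster 2) had medians of 5000 UMI and 5.02% mitochondrial UMI. The second set (merged cluster 4) had 1186 UMI and 0.694%, with ribosomal shares of 24.3% and 25.3% in the 2 sets. The 3 RNAs Malat1, Xist and Neat1, which stay in the nucleus, were far lower in the second set. Malat1 stood at 177.1 (173.2 to 181.1) and 23.2 (19.6 to 27.3), Xist at 8.27 and 0.471 (3 UMI, all in 1 cell), and Neat1 at 2.64 and 0.157 (1 UMI). Of 12 mitochondrial genes, 11 were at least 2-fold higher in the first set, against 28.7% of all 5691 genes, while 6.92% of all genes were lower.

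**Figure D4:**
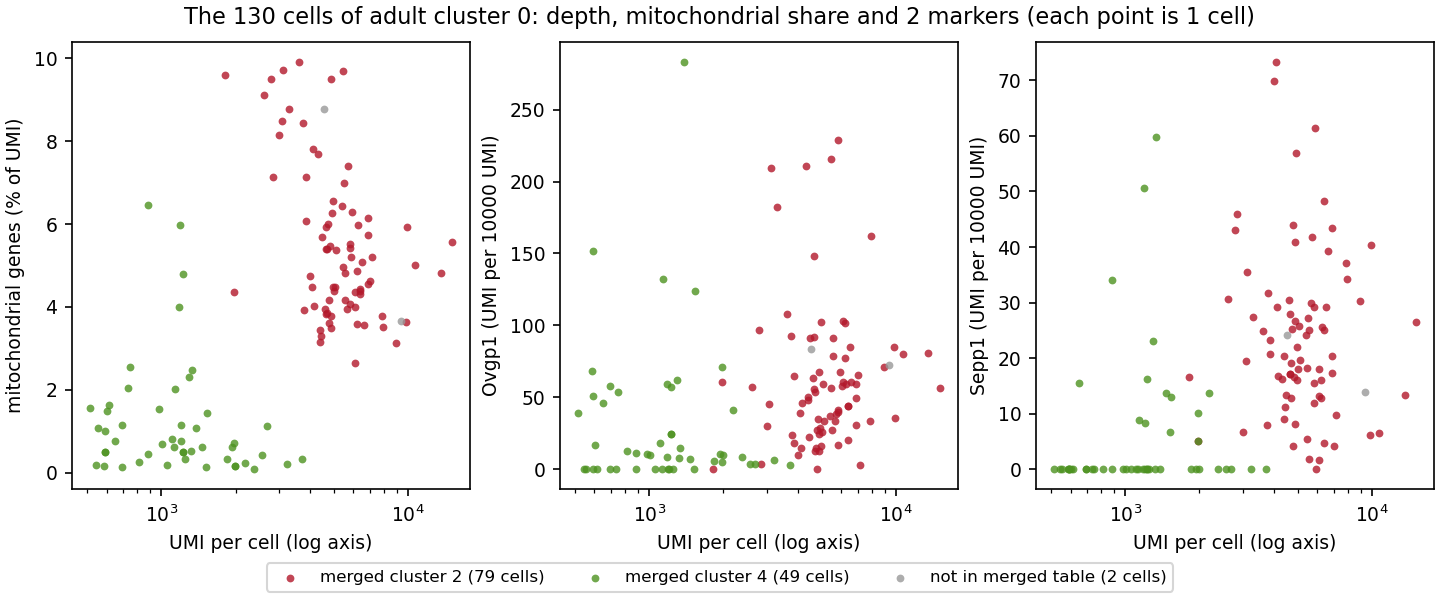
Mitochondrial share (% of UMI) and levels of Ovgp1 and Sepp1 (UMI per 10000 UMI) against UMI per cell (log axis) for the 130 cells of cluster 0, each point being 1 cell coloured by merged cluster. The 49 cells of merged cluster 4 lie at low depth and mostly under 2% mitochondrial UMI, and 14 of them have Sepp1, against 78 of the 79 cells of merged cluster 2.

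Both sets held cells of middle depth. Among cells with 1500 to 4000 UMI, 14 lay in merged cluster 2 and 13 in merged cluster 4, with mitochondrial shares of 3.93 to 9.91% and 0.0842 to 1.44% that did not overlap, and median depths of 3089 and 1997 UMI. The Malat1 level was 208.6 in the former and 3.39 in the latter. Sepp1 was counted in 14 of 14 and 5 of 13 of these cells, Ovgp1 in 13 of 14 and 12 of 13, and Gatm in 10 of 14 and 10 of 13. Over all cells thinned to 1000 UMI, Sepp1 was present in 83.5% (73.5 to 90.9) of the first set and 38.7% (21.9 to 57.8) of the second, Msln in 21.5% (13.1 to 32.2) and 0 of 31, and Gatm in 40.5% (29.6 to 52.1) and 58.1% (39.1 to 75.5). In pooled levels Sepp1 stood at 23.1 and 5.65, Ovgp1 at 62.6 and 27.9, Msln at 2.62 and 0.314, and Gatm at 7.77 (6.96 to 8.64) and 9.26 (7.05 to 11.9). Sepp1, Msln and Ovgp1 were thus lower in the second set, and the intervals of Gatm overlapped. The part of depth and of the mitochondrial share in these values was not tested.

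By list, 8 of 13 secreted glycoproteins and defence proteins were higher in the first set and none lower (median log2 fold 1.16, against 0.26 over all genes), as were 7 of 7 Wnt genes (1.30) and 4 of 7 Notch genes (1.72). A sparse gene could be measured through the deeper first set alone, and the merged clusters were drawn from expression, so these counts are descriptions. Fzd6 had 8 UMI and Notch1 10 in all of cluster 0. Of 20 endoplasmic reticulum genes, 5 were higher, a share no larger than the 28.7% of all genes; Hsp90b1 stood at 13.3 against 2.67. Of 92 ribosomal protein genes, 1 was higher and 2 lower. Genes higher in the second set included Tmsb4x, an actin-binding peptide, at 136.7 against 89.0. A mitochondrial share under 2% occurred in 40 of the 130 cells of cluster 0 (30.8%, 23.0 to 39.5), and in 25.7% of cluster 1, 48.6% of cluster 3, 51.6% of cluster 4 and 5 of the 25 cells of cluster 5. Malat1 in those cells was 4.82 in cluster 0, 7.68 in cluster 1, 1.30 in cluster 4 and 1.02 in cluster 5, against 133.0 to 210.2 in their other cells, and 117.7 against 151.5 in cluster 3. The low-mitochondrial cells were therefore not particular to cluster 0. By depth alone, the deepest tertile (43 cells of 4959 to 15050 UMI) against the shallowest (44 cells of 514 to 1981) had 1938 of 6107 genes at least 2-fold higher (31.7%) and 439 lower (7.19%). Sepp1 stood at 21.6 and 7.59 there, and Ovgp1 at 65.7 and 35.3. Without the tertile of cluster 0 cells with the fewest UMI, the genes higher than in every other cluster numbered 64 in place of 40.

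Expression of the immediate early and stress genes ranged from 0 to 568.0 UMI per 10000 over single cells of cluster 0, with a median of 124.1. Their pooled level was 162.2, against 222.4 in cluster 3, 118.0 in cluster 5, 69.2 in cluster 1 and 46.6 in cluster 4. Split into tertiles by this level, the highest tertile of cells (43) against the lowest (44) had 559 of 5354 other genes at least 2-fold higher (10.4%) and 328 lower (6.13%). Ppp1r15a, a stress-induced regulator of protein synthesis, stood at 11.9 (10.4 to 13.5) against 0.551, Klf6 at 19.0 against 2.14, and Irf1, an interferon regulatory factor, at 2.18 against 0.122 on 2 UMI. Nppc, one of the cluster's leading genes, was also higher (1.88 against 0.122 on 2 UMI). Agr2 stood at 2.33 against 7.53, Wfdc18 at 50.4 against 95.3 and Lcn2 at 12.6 against 23.7. The markers Sepp1 (20.1 against 23.9), Kctd14 (16.1 against 18.1) and Slc1a3 (2.54 against 2.45) differed by less than 1.5-fold. Median depth was 4836 UMI in the highest tertile and 3458.5 in the lowest, and mitochondrial shares were 4.16% and 4.26%.

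Genes of protein folding were higher in cells with more Ovgp1. The cells were split by their Ovgp1 level, which is therefore no finding, and the highest tertile had 97.9 UMI per 10000 and the lowest 8.31, and 12 of 20 endoplasmic reticulum genes were at least 2-fold higher and none lower (median log2 fold 1.33, against 0.12 over all genes with 16.8% of genes higher and 6.17% lower). Depth and mitochondrial share moved too, at medians of 4981 against 1490.5 UMI and 4.81 against 0.948%. The split was therefore repeated in the 86 cells of the upper 2 depth tertiles, in 2 groups of 43 cells with Ovgp1 at 88.9 and 26.0, where the medians were 5574 and 4803 UMI and 5.02 and 4.47% mitochondrial UMI. In that comparison 401 of 6164 genes (6.51%) were at least 2-fold higher and 278 (4.51%) lower. Pdia6 alone of the 20 reached 2-fold, but all 20 had a fold above 1 (median log2 fold 0.72), as did 50.8% of all genes, whose median was 0.02.

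**Figure D5:**
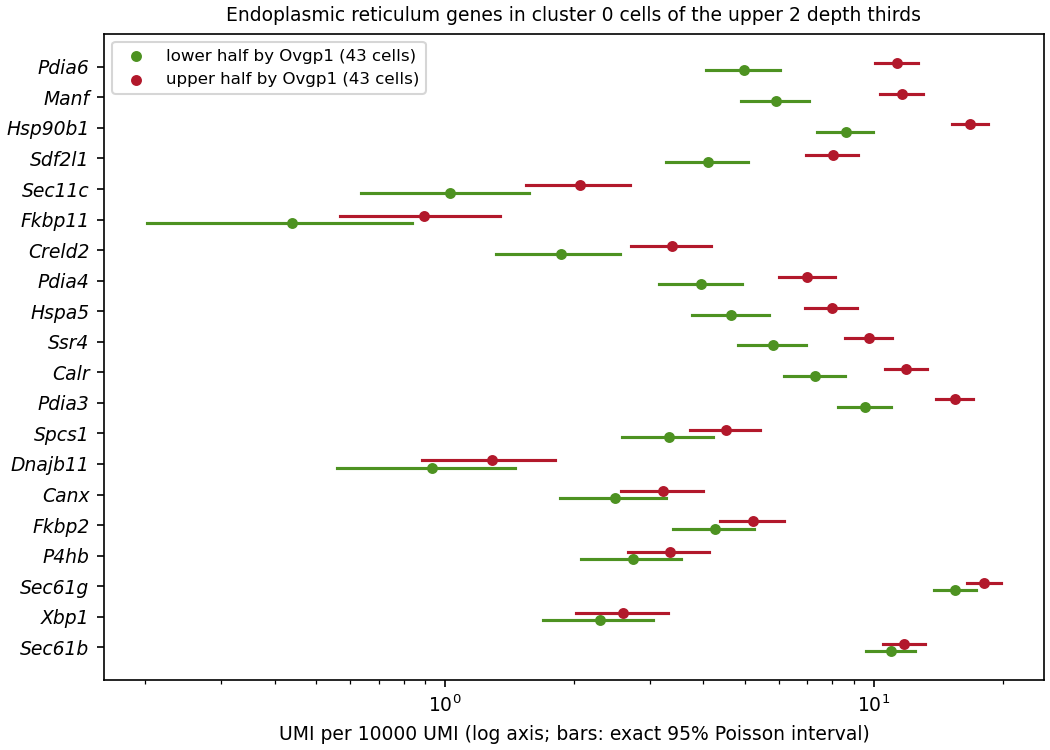
Pooled levels (UMI per 10000 UMI, log axis, exact 95% Poisson intervals) of the 20 endoplasmic reticulum genes in the 43 cells with less and the 43 with more Ovgp1 of the 86 cluster 0 cells in the upper 2 depth tertiles. The cells with more Ovgp1 lie to the right for all 20 genes, from 1.08-fold for Sec61b to 2.24-fold for Pdia6.

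For 12 of the 20 the interval of the ratio lay above 1, against 3.46% of all genes. An interval clears 1 more easily at higher counts, and these 2 shares were not matched for counts, so their difference is not read as enrichment. The share past 2-fold, 1 of 20, was no higher than over all genes. Pdia6, a disulfide isomerase, stood at 11.3 (10.1 to 12.7) in the cells with more Ovgp1 and 4.99 (4.07 to 6.06) in those with less, a fold of 2.24. Hsp90b1, the chaperone GRP94, stood at 16.8 (15.2 to 18.4) and 8.61 (7.39 to 9.98), and Manf, a secreted protein of the stress response of this organelle, at 11.6 (10.4 to 13.0) and 5.92 (4.91 to 7.08). Hspa5 stood at 7.98 (6.92 to 9.15) and 4.65 (3.76 to 5.68). The translocon subunits Sec61b (1.08-fold) and Sec61g (1.17-fold) and the transcription factor Xbp1 (1.13-fold) were closest to even. Among the other secreted proteins, Wfdc18 stood at 85.1 and 52.5 and Ltf at 8.99 and 5.48, while Sepp1 stood at 19.9 (18.2 to 21.7) and 25.3 (23.2 to 27.6) and Gatm at 7.08 and 9.0. Without the 1 cell that holds most of the Dcpp3 count, all 20 remained above 1 (median log2 fold 0.73), and the interval lay above 1 for 13.

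Against the P4 library (263 cells, median 6679 UMI over the matched genes), cluster 0 exceeded P4 by 2-fold or more in 481 of 7268 genes (6.62%), and 1022 (14.1%) were lower, with a median log2 fold of -0.20. At 1000 UMI per cell the counts were 281 and 275. Age cannot be told apart from library here, and the P4 cells were of all clusters. Levels for this comparison are over the genes matched between the tables. Gatm stood at 7.87 against 0.113 (37.5-fold), Sepp1 at 20.8 against 0.595 (30.1-fold), Ovgp1 at 58.8 against 2.42 (23.4-fold), Kctd14 at 16.4 against 1.35 (11.4-fold) and Msln at 2.31 against 0.547 (3.72-fold). Slc1a3 stood at 2.23 against 1.58 and did not reach 2-fold. Between the P4 clusters 0 and 1, with levels over all P4 genes, Ovgp1 stood at 1.57 and 4.28 and Kctd14 at 1.66 and 0.667, while Sepp1 (0.586 and 0.616) had overlapping intervals.

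Of 13 measured secreted glycoproteins and defence proteins, 11 were higher in cluster 0 than at P4 and none lower (median log2 fold 3.62), among them Lcn2 (15.04 against 0.354) and Clu (14.6 against 0.520). Of the 20 endoplasmic reticulum genes, 16 were higher and none lower (median 1.77). Among 12 cell cycle genes, 8 were lower in cluster 0, with Top2a, the topoisomerase of dividing cells, at 1 UMI in cluster 0 and a level of 1.04 at P4, and Ccnd1, a G1 cyclin, was higher. Of 13 extracellular matrix genes, 7 were lower. Col1a1, which fibroblasts make, was counted in 73.8% of P4 cells and 12.3% of cluster 0 cells, and the part of stromal RNA in this list was not tested. Pax8 stood at 0.684 against 1.57 and Wt1 at 3.85 against 1.44.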

How the data were processed

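The authors deposited raw counts (UMI per gene and cell) for the adult, P4 and merged tables, as well as each cell's cluster number. Seurat 2.3.4, Cell Ranger (without a version) and mm10 are named in the submitters' processing notes. Repeated barcodes were counted once, from the first prefix. Counts were pooled over cells. Levels have exact 95% Poisson intervals, ratios exact conditional ones and shares Clopper-Pearson ones. A gene was measured with a UMI in at least 10% of cells on either side, and a difference means at least 2-fold. No doublet caller was run, and alternatives left out the 5% of cells with the most UMI and cells with 3 or more multiciliated markers. Adult genes were matched to P4 by symbol (26897) or by RefSeq synonym (440, among them Sepp1 as Selenop). GENCODE M21 (GRCm38) gave the gene positions.

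Named genes were the markers, Epcam, Foxj1, Wt1, Pax8, Esr1 and Pgr, and those with the largest folds by rule (20 higher and 10 lower than the other adult cells, 15 above each cluster, 8 each way against cluster 4, each with a pooled count of at least 20), without ribosomal protein, mitochondrial, Gm and Rik genes; list members past 2-fold; and the 20 most dispersed genes and the most extreme pairs. The pairs were also ranked without ribosomal protein, mitochondrial, Gm and Rik genes. Members, lists and comparisons were chosen with earlier results of these data known. The splits of cluster 0 by depth, merged cluster, immediate early genes and Ovgp1 were chosen after seeing the data. The fold and dispersion computations were tested on simulated data (Python 3.11.15, numpy 2.4.6, scipy 1.17.1). A gene that the rule names and the list that holds it are not reported here.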

Additional observations from a re-analysis of the deposited data

How the results depend on the processing

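No paired analysis was possible because each age has 1 library. Counts given in order are genes higher and lower than the other adult cells, higher and lower than cluster 4, and higher than each cluster. A pseudocount of 0.5 gave 162, 514, 205, 165 and 10. A filter of 25% of cells gave 196, 418, 209, 175 and 11. Thinning to 1000 UMI gave 232, 480, 290, 741 and 20, and 26 dispersed genes. No filter on the share of cells gave 1610 genes lower than the other adult cells, 2343 higher and 1147 lower than cluster 4, and 82 higher than each cluster. The last count was 69 with a mean over cells, 65 without ribosomal protein and mitochondrial genes, and 64 without the lowest tertile of cluster 0 cells by UMI, which was chosen after seeing the data. Against P4, higher and lower, the pseudocount gave 210 and 214, the 25% filter 268 and 511, and thinning 281 and 275. Against cluster 4, also chosen after seeing the data, leaving out cells under 2% mitochondrial UMI gave 1563 higher and 732 lower, and leaving out cells under 1000 UMI gave 750 lower. Of the other count values under an alternative, 35 stayed within 1.5 times, or inside the interval for the share in the merged cluster. No alternative took a marker's fold across 1, and 17 of 36 marker folds left their counting interval. Genes under about 3 UMI in a group cannot be told from 0 at this depth.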
